A study of Mus musculus with 16 samples.

Results

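The genes described here are 7 that have been used to mark reserve or regenerative stem cells of the intestinal epithelium, *Bmi1*, *Hopx*, *Lrig1*, *Mex3a*, *Clu*, *Ly6a* and *Anxa1*. They were taken by symbol from the 45513 genes counted in each library, and all 7 were found. The study asked which transcripts mark the secretory lineage of the mouse small intestine, and for that purpose labelled and unlabelled epithelial cells of the same animals were sequenced. The 16 libraries were 8 of EpCAM+ tdTom+ cells (the group tdTompositive) and 8 of EpCAM+ tdTom- cells (the group tdTomnegative), with 1 of each from each of 8 mice. All mice carried *Atoh1*(WT)CreERT2, in which a tamoxifen-inducible recombinase is made wherever *Atoh1*, the gene of a basic helix-loop-helix factor that specifies secretory cells, is active, together with the R26RtdTom reporter. Both fractions therefore shared the same genotype and the same treatment, and were sorted by whether the red reporter tdTomato had been switched on. Tamoxifen was given at 1 mg per day for 3 days, as stated in the labels and in the methods for the secretory signature, although the general sequencing methods describe 1 injection a day ahead of collection. The animals were males and females of 8 to 16 weeks on a C57BL/6 background, homozygous for the *Atoh1* allele and heterozygous for the reporter. Cells came from crypt-enriched fractions of the proximal small intestine, with the villus-enriched fraction discarded. The reporter stays on in a cell and its progeny, so that tdTom+ marks a history of *Atoh1* expression rather than 1 cell type.

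The crypt is renewed from *Lgr5*-expressing stem cells at its base, between the Paneth cells. After these cells are lost, other crypt cells can replace them, among them slowly dividing cells above the base and secretory or absorptive precursors that return to a stem cell state. *Bmi1*, *Hopx*, *Lrig1* and *Mex3a* were each used to trace cells with such activity in the resting or injured crypt. *Clu*, *Ly6a* and *Anxa1* are low in the resting epithelium and are known for their induction after injury, when the epithelium takes on fetal-like features.

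Total counts ranged from 17116405 to 25323567 per library, and 15323 genes passed the filter on low counts. *Atoh1* differed by 6.43 on the log2 scale, with tdTom+ above tdTom- in each of the 8 mice. *Epcam* averaged 942 CPM in tdTom+ and 1019 CPM in tdTom- (CPM are counts scaled to a common library size with TMM factors). Goblet, Paneth, tuft and enteroendocrine markers were higher in tdTom+ for every gene of those lists of 6, and all 6 enterocyte markers were lower. The tuft gene *Dclk1* averaged 57.2 CPM in tdTom+ and 10.2 CPM in tdTom-. By staining a day after 1 tamoxifen injection, the paper saw no label in tuft or enteroendocrine cells. Enteroendocrine cells carried it some days later. By the labels, tamoxifen was given here on 3 days. Mouse 7 stood apart from the other 7 in both fractions. *Lgr5* was at 33.3 CPM in its tdTom- library, against 9.83 to 24.2 CPM in the other tdTom- libraries. The summed enterocyte markers of that library were the lowest of the tdTom- libraries (9925 CPM). Its tdTom+ library had the lowest goblet (124972 CPM), the highest Paneth (68802 CPM) and the lowest enterocyte sum (1177 CPM) of the tdTom+ libraries. The tuft and enteroendocrine sums of that tdTom+ library lay within the range of the others. In the tdTom- library of mouse 7 the tuft sum (21.3 CPM) and the enteroendocrine sum (539 CPM) were the lowest of that fraction. Values without mouse 7 are given for each gene below.

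*Bmi1*, *Hopx*, *Lrig1*, *Mex3a* and *Ly6a* were higher in tdTom+ than in tdTom- cells, each in 8 of 8 mice. *Clu* did not pass the test, and *Anxa1* was too low to be tested. Of the 6 genes tested, 5 were therefore called higher and 0 lower, where 25.8% of all tested genes were called higher and 30.0% lower, 55.8% in either direction (adjusted p under 0.01, edgeR quasi-likelihood test with the mouse as a block). In 2 of the 5, *Bmi1* and *Hopx*, the fractions did not overlap, as was the case with tdTom+ higher for 14.6% of all tested genes (31.6% in either direction). In bulk libraries such as these, a larger number of cells that express a gene and more RNA of it per cell cannot be told apart.

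The sequences directly before the start sites of the 4 genes that mark crypt cells at rest are shown because these 4 were higher in the same fraction. Each is 250 bases from RefSeq on GRCm38.p6, read in the direction of the gene and ending at the base before the RefSeq start. Except for *Bmi1*, these starts differ from the gene coordinates given below. The *Mex3a* window ends at 88531945, where its gene coordinates begin at 88532395. The *Lrig1* window reaches into the gene coordinates, which end at 94700158. They lie at chr2:18676768-18677017 (plus strand) for *Bmi1*, chr5:77115124-77115373 (minus strand) for the outer of 2 starts of *Hopx*, chr6:94700146-94700395 (minus strand) for *Lrig1* and chr3:88531696-88531945 (plus strand) for *Mex3a*. Capitals mark GGAATG, a motif of TEAD transcription factors.
Bmi1: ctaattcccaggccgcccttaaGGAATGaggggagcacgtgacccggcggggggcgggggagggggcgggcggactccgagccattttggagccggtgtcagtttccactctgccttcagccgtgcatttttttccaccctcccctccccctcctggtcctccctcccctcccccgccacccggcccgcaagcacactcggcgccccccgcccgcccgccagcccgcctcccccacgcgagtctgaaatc
Hopx: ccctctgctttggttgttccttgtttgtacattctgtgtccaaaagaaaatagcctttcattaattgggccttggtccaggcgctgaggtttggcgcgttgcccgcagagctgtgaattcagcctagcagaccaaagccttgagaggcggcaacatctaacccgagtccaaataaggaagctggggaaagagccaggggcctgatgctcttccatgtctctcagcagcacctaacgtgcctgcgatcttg
Lrig1: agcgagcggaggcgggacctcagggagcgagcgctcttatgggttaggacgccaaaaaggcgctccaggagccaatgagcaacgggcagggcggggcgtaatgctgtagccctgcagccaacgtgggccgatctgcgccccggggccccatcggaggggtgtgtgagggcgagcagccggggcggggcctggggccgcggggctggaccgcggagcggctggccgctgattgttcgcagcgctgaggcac
Mex3a: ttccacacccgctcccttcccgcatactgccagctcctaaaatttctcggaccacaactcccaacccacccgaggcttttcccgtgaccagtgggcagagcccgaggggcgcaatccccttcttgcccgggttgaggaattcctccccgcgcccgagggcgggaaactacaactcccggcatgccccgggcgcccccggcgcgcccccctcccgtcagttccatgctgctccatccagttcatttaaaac

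Windows were found for 5 of the 7 genes, 6 windows in all since *Hopx* has 2 starts, and none for *Clu* and *Ly6a*. GGAATG or its reverse complement CATTCC was in 2 of the 6, once 228 bases before the start of *Bmi1* and once 236 bases before that of *Anxa1*. These letters were in 12.6% of all 32851 windows of this length. The E-box CAGCTG, a motif of basic helix-loop-helix factors, reads the same on both strands, does not overlap the TEAD motif, and was in 0 of the 6 windows and in 13.0% of all windows. A match is a description of the letters, and binding was not measured. The *Anxa1* window (chr19:20390672-20390921, minus strand) lies inside the gene coordinates given below, because its RefSeq start differs from theirs. The windows of *Lrig1* (71.6% G or C) and *Bmi1* (70.4%) were rich in these bases, with 26 and 21 CpG dinucleotides against a median of 6 over all windows. The *Mex3a* window had 64.0% and 19 CpG. The windows of *Hopx* had 52.4% and 8 CpG at the outer start and 57.6% and 18 CpG at the inner one, and that of *Anxa1* had 46.0% and 2 CpG, where the median of all windows was 52.4%.

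*Bmi1* (ENSMUSG00000026739, GRCm38 chr2:18677018-18686629, plus strand) encodes a subunit of Polycomb repressive complex PRC1, which keeps genes silent through histone H2A. It was first used to trace slowly dividing cells above the crypt base. In tdTom+ libraries the lowest, median and highest values were 15.4, 18.3 and 19.1 CPM, and in tdTom- libraries 11.7, 12.3 and 14.7 CPM. Every tdTom+ library was above every tdTom- library, the nearest being the tdTom- library of mouse 7 and the tdTom+ library of mouse 5. The means were 17.7 ± 1.42 and 12.6 ± 0.962 CPM (SD, n = 8 each). The level was 1.40-fold higher in tdTom+ (95% interval 1.28 to 1.55), or 0.49 ± 0.065 on the log2 scale (SE, edgeR adjusted p = 1.4e-05). Without mouse 7 the log2 fold change was 0.51.

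*Hopx* (ENSMUSG00000059325, chr5:77086988-77115121, minus strand) encodes a small homeodomain protein that does not bind DNA, and its reporter marked quiescent cells near the position of the fourth cell above the base. Values in tdTom+ libraries were 67.3, 73.6 and 83.1 CPM (lowest, median and highest), against 49.1, 52.7 and 57.3 CPM in tdTom-. The fractions did not overlap. Of the 7 genes *Hopx* varied least between mice, with a coefficient of variation of 6.86% in tdTom+ and 5.56% in tdTom-. The means of 74.1 ± 5.09 and 52.6 ± 2.93 CPM (SD, n = 8) gave a 1.41-fold difference (95% interval 1.30 to 1.52) and a log2 fold change of 0.49 ± 0.052 (SE, edgeR adjusted p = 1.7e-06). Mouse 7 had the lowest tdTom- value and the highest tdTom+ value, and the log2 fold change without it was 0.46.

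*Lrig1* (ENSMUSG00000030029, chr6:94604529-94700158, minus strand) encodes a transmembrane protein that restrains the receptor tyrosine kinases of the EGF receptor family, and marks a broad range of crypt base cells. Its values were 79.1, 87.4 and 112 CPM in tdTom+ and 50.3, 57.3 and 94.2 CPM in tdTom- (lowest, median and highest). The fractions overlapped through a single library, the tdTom- library of mouse 7 at 94.2 CPM, since the next highest tdTom- value was 67.8 CPM in mouse 8. Within each mouse the tdTom+ value was the higher one. The means were 91.2 ± 11.3 and 62.5 ± 14.0 CPM (SD, n = 8), and the difference was 1.47-fold (95% interval 1.32 to 1.64) with a log2 fold change of 0.56 ± 0.072 (SE, edgeR adjusted p = 1.2e-05). It was 0.61 without mouse 7.

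*Mex3a* (ENSMUSG00000074480, chr3:88532395-88541396, plus strand) encodes an RNA-binding protein that marks a slowly dividing subset of *Lgr5*-expressing cells. Values ran from 3.57 over a median of 4.23 to 6.06 CPM in tdTom+ and from 1.19 over a median of 1.76 to 3.97 CPM in tdTom-. The overlap again came from mouse 7, whose tdTom- value of 3.97 CPM lay above 3 of the 8 tdTom+ values, while the next highest tdTom- library, of mouse 8, was at 2.66 CPM. With means of 4.36 ± 0.795 and 2.04 ± 0.913 CPM (SD, n = 8), *Mex3a* was 2.20-fold higher in tdTom+ (95% interval 1.76 to 2.76). Its log2 fold change was 1.14 ± 0.15 (SE, edgeR adjusted p = 1.5e-05), and 1.24 without mouse 7.

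**Figure D1:**
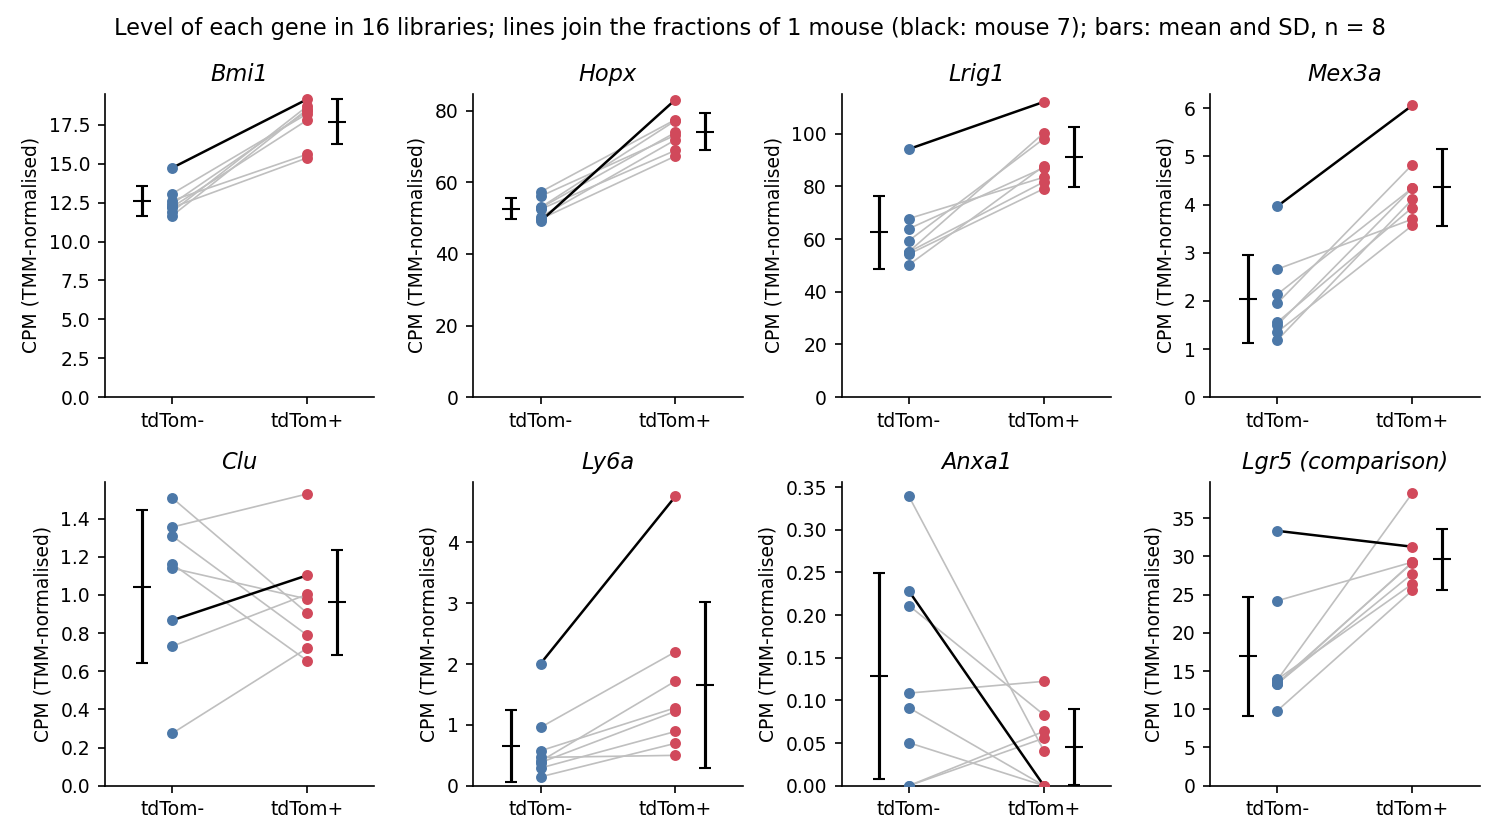
Level of each of the 7 genes, and of *Lgr5* for comparison, in the 16 libraries. Each panel gives TMM-normalised CPM on a linear axis from 0, with tdTom- libraries in blue and tdTom+ libraries in red, lines joining the 2 fractions of a mouse (black for mouse 7) and bars for mean and SD of 8 libraries. All 8 lines go up for *Bmi1*, *Hopx*, *Lrig1*, *Mex3a* and *Ly6a*, 4 of 8 go up for *Clu*, and the tdTom- library of mouse 7 is the highest of its fraction for *Lgr5*, *Lrig1*, *Mex3a*, *Bmi1* and *Ly6a*.

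Among the genes known for induction after injury, *Ly6a* (ENSMUSG00000075602, chr15:74994877-74998031, minus strand) was low but higher in tdTom+. It encodes Sca-1, a small GPI-anchored surface protein that is also found on lymphocytes and endothelium. Values were 0.499, 1.25 and 4.76 CPM in tdTom+ (lowest, median and highest; 12 to 95 counts) and 0.145, 0.433 and 2.01 CPM in tdTom- (3 to 44 counts). The fractions overlapped widely, mouse 7 had the highest value in both, and the tdTom+ value was the higher one in 8 of 8 mice, although in mouse 8 the values of 0.499 and 0.465 CPM were nearly equal. The means were 1.66 ± 1.37 and 0.653 ± 0.597 CPM (SD, n = 8), and the fitted difference was 2.54-fold (95% interval 1.88 to 3.43), a log2 fold change of 1.34 ± 0.20 (SE, edgeR adjusted p = 4.7e-05). This call rested on the pairing of the fractions by mouse, since the fit with no replicate block gave 1.32 with an edgeR adjusted p of 0.0285. In the paired fit it was 1.38 without mouse 7. Genes of the LY6 family resemble each other in sequence and the counting kept 1 alignment per read, so the division of reads between them is uncertain.

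Markers of other cell types moved with the fractions. The 9 immune markers other than *Lyz2* summed to 5.79 to 26.4 CPM in tdTom+ and 10.7 to 133 CPM in tdTom-, lower in tdTom+ in 8 of 8 mice, with 6 of the 8 tested called lower and 0 higher. *Lyz2*, which shares sequence with the Paneth cell gene *Lyz1* and was set apart after its values were seen, averaged 2406 CPM in tdTom+ and 14.1 CPM in tdTom-. In mouse 7, whose *Ly6a* was the highest of both fractions, the immune sum was 124 CPM in tdTom-, with 1 library above it, and 8.32 CPM in tdTom+, with 1 library below it. The 6 endothelial markers summed to 1.95 to 4.08 CPM in tdTom+ and 1.31 to 2.87 CPM in tdTom-, higher in tdTom+ in 7 of 8 mice. The median log2 fold change of the 3 tested was 0.65, with 0 of the 3 called and with the defining genes *Kdr* and *Emcn* at or near 0 (at most 3 counts in every library). *Cdh5*, also below the filter, went the other way, with 0 counts in every tdTom+ library and 0 to 7 in tdTom- libraries. The 8 fibroblast and muscle markers summed to 2.34 to 3.86 CPM and 2.41 to 4.29 CPM, with 0 of 2 called and *Col1a1*, *Pdgfra* and *Des* at or near 0. The 6 M cell markers summed to 257 to 352 CPM in tdTom+ and 71.9 to 109 CPM in tdTom-, with 4 of 5 tested called higher and 1 lower, although *Gp2*, a defining M cell gene, had at most 14 counts in any library. *Ccl9* made up most of this gap (171 CPM in tdTom+ and 2.58 CPM in tdTom-). Without it, a choice made after the values were seen, the other 5 summed to 85.2 to 136 CPM in tdTom+ and 69.4 to 106 CPM in tdTom-, ranges that overlapped. The part of immune, endothelial, M cell and secretory cells in the *Ly6a* result was not tested.

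*Clu* (ENSMUSG00000022037, chr14:65968483-65981548, plus strand) encodes the secreted chaperone clusterin and names the revival stem cells of the irradiated crypt. Values were 0.656, 0.942 and 1.53 CPM in tdTom+ (16 to 24 counts) and 0.274, 1.15 and 1.51 CPM in tdTom- (6 to 31 counts). The fractions overlapped, and the tdTom+ value was higher in 4 of 8 mice. The means were 0.960 ± 0.275 and 1.04 ± 0.402 CPM (SD, n = 8), with a log2 fold change of -0.10 ± 0.22 (SE, edgeR adjusted p = 0.700). The 95% interval of -0.59 to 0.38 left room for a difference of either sign, and without mouse 7 the value was -0.17.

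*Anxa1* (ENSMUSG00000024659, chr19:20373428-20390944, minus strand) encodes annexin A1, a calcium-dependent phospholipid-binding protein. It had 0 to 2 counts per tdTom+ library and 0 to 7 per tdTom- library, with sums of 7 and 22 counts over the 8 libraries of each fraction. All 8 tdTom+ libraries and 5 of the 8 tdTom- libraries lay under the level of 3 counts, 0.118 to 0.175 CPM depending on the library, and no fold change is given. Without the filter on low counts the edgeR adjusted p was 0.147, and DESeq2 gave 0.254, so that a difference was not detectable at this depth.

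**Figure D2:**
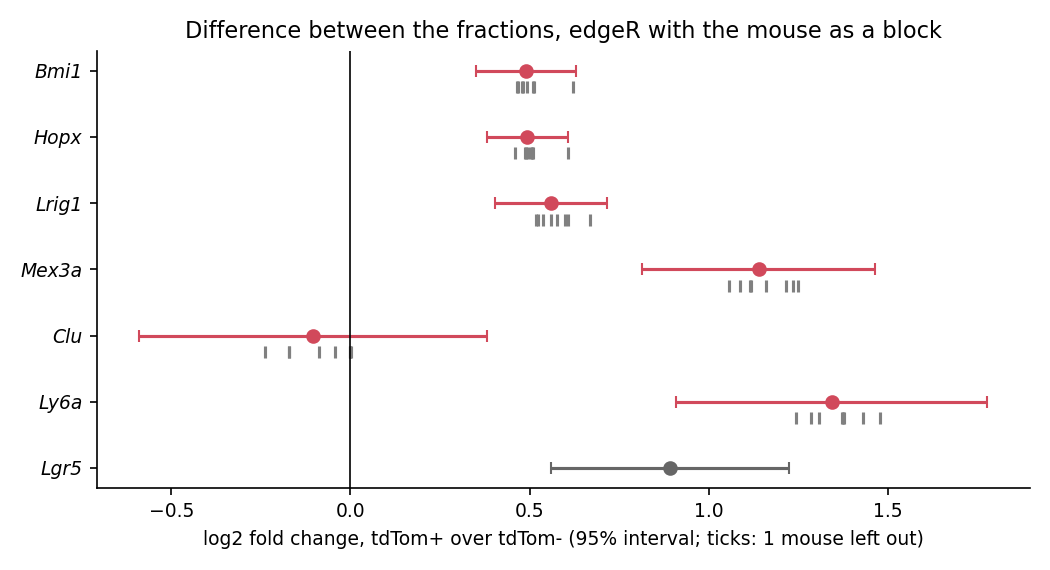
Log2 fold change between tdTom+ and tdTom- for the 6 genes tested and for *Lgr5*. Points are edgeR estimates with the mouse as a block, bars are 95% intervals, and grey ticks under the 6 genes are the estimates with each mouse left out. *Bmi1*, *Hopx* and *Lrig1* lie between 0.49 and 0.56, *Mex3a* and *Ly6a* at 1.14 and 1.34, and the interval of *Clu* includes 0.

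Levels can be compared between genes only per length of transcript. In CPM per kilobase of exon the order in both fractions was *Hopx*, *Lrig1*, *Bmi1*, *Ly6a*, *Mex3a*, *Clu* and *Anxa1*. The mean levels per kilobase in tdTom+ were 48.9 ± 3.36 for *Hopx*, 16.3 ± 2.02 for *Lrig1*, 4.46 ± 0.358 for *Bmi1* and 1.38 ± 1.14 for *Ly6a* (SD, n = 8). They were 0.755 ± 0.138 for *Mex3a*, 0.279 ± 0.0799 for *Clu* and 0.0175 ± 0.0171 for *Anxa1*. Neighbours in this order did not overlap between libraries, except *Bmi1* with *Ly6a* and *Ly6a* with *Mex3a*. In tdTom- the levels per kilobase were 34.7 ± 1.93 for *Hopx*, 11.2 ± 2.50 for *Lrig1*, 3.17 ± 0.242 for *Bmi1* and 0.542 ± 0.495 for *Ly6a*, followed by 0.353 ± 0.158 for *Mex3a*, 0.303 ± 0.117 for *Clu* and 0.0493 ± 0.0463 for *Anxa1*. There the 3 lowest steps overlapped, *Ly6a* with *Mex3a*, *Mex3a* with *Clu* and *Clu* with *Anxa1*. The genes used as marks of the resting crypt and those of injury did not separate fully, since *Ly6a* stood above *Mex3a* in mean level in both fractions.

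**Figure D3:**
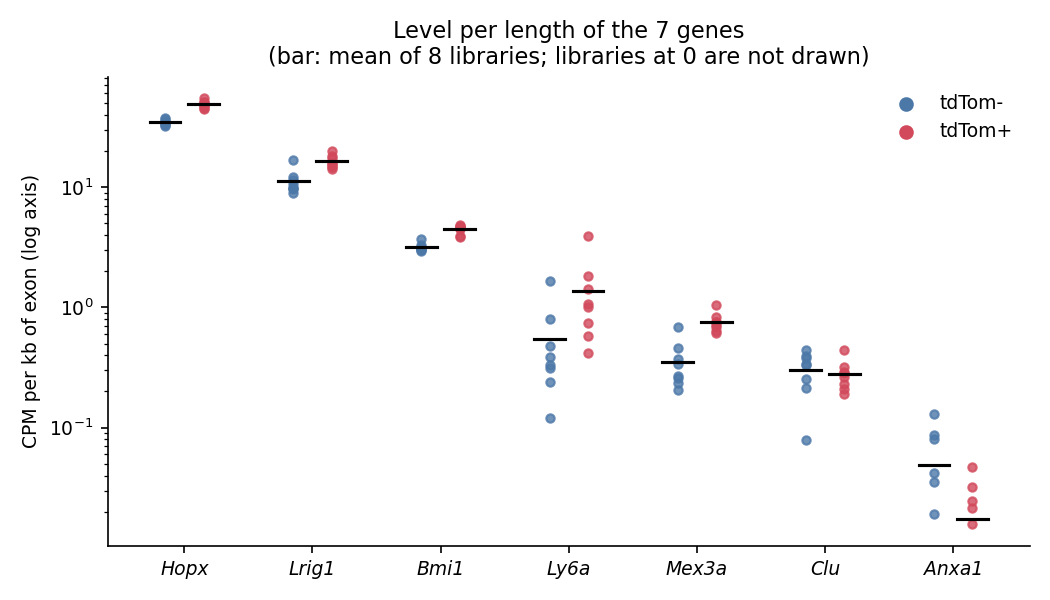
Level of the 7 genes in CPM per kilobase of exon on a log axis, ordered by the tdTom+ mean. Points are libraries (blue tdTom-, red tdTom+), black bars are means of 8 libraries, and libraries with 0 counts are not drawn. The means run from 48.9 for *Hopx* to 0.0175 for *Anxa1* in tdTom+.

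*Lgr5*, which encodes a receptor for R-spondins and defines the crypt base stem cells, served as a comparison. It was 25.5, 29.2 and 38.3 CPM in tdTom+ (lowest, median and highest) and 9.83, 13.6 and 33.3 CPM in tdTom-, with a log2 fold change of 0.89 ± 0.15 (SE, edgeR adjusted p = 0.00017). The fractions overlapped, and the exception to the direction was mouse 7, with 31.3 CPM in tdTom+ against 33.3 CPM in tdTom-. For each mouse the log2 ratio of the fractions of a gene was set against that of *Lgr5*, by exact sign-flip tests (two-sided, 8 mice) adjusted over the 7 genes. These 7 include *Anxa1*, whose ratio is not given because it had at most 7 counts in any library. Its p-value still enters the adjustment of the other genes. The mean ratio was lower than that of *Lgr5* by 0.42 for *Bmi1* (a difference of -0.42, 95% interval -0.88 to 0.04) and differed by -0.41 for *Hopx* (-0.95 to 0.13), -0.34 for *Lrig1* (-0.69 to 0.01) and -0.94 for *Clu* (-1.70 to -0.17). It differed by 0.24 for *Mex3a* (-0.04 to 0.51) and by 0.33 for *Ly6a* (-0.08 to 0.73). None of the 6 passed at 0.05, with adjusted p of 0.0911 to 0.117 and with *Clu* alone under an unadjusted p of 0.05 (exact p = 0.0312). Mouse 7 decided this outcome. Without it *Bmi1* (-0.54), *Hopx* (-0.59), *Lrig1* (-0.44) and *Clu* (-1.13) passed (exact test, adjusted p = 0.0437 each).

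Across mice the ratios of the genes did not follow the same order. The log2 ratio of *Lgr5* was between 0.92 and 1.46 in mice 1 to 6, -0.09 in mouse 7 and 0.27 in mouse 8. *Lrig1* and *Mex3a* also had their smallest ratios in these 2 animals, 0.25 and 0.60 in mouse 7 and 0.30 and 0.46 in mouse 8. *Hopx* had its largest ratio, 0.76, in mouse 7, and *Bmi1* its largest, 0.66, in mouse 8. *Ly6a* had a ratio of 1.21 in mouse 7 and of 0.08 in mouse 8. A comparison of the ratios of all 15 pairs among the 6 tested genes was added after the values were seen. In the exact sign-flip test 0 of the 15 pairs passed at an adjusted p of 0.05, the smallest being 0.0502, while 9 pairs had an unadjusted p under 0.05. The ratio of *Mex3a* exceeded that of *Lrig1* in 8 of 8 mice by a mean of 0.58 (95% interval 0.32 to 0.84; exact p = 0.00781, the smallest that 8 mice allow, adjusted 0.0502). That of *Hopx* exceeded that of *Bmi1* by 0.01 (-0.16 to 0.18). The number of pairs that passed was 6 without mouse 8, 5 without mouse 5 and 6 with a prior count of 0.5 in place of 2.

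**Figure D4:**
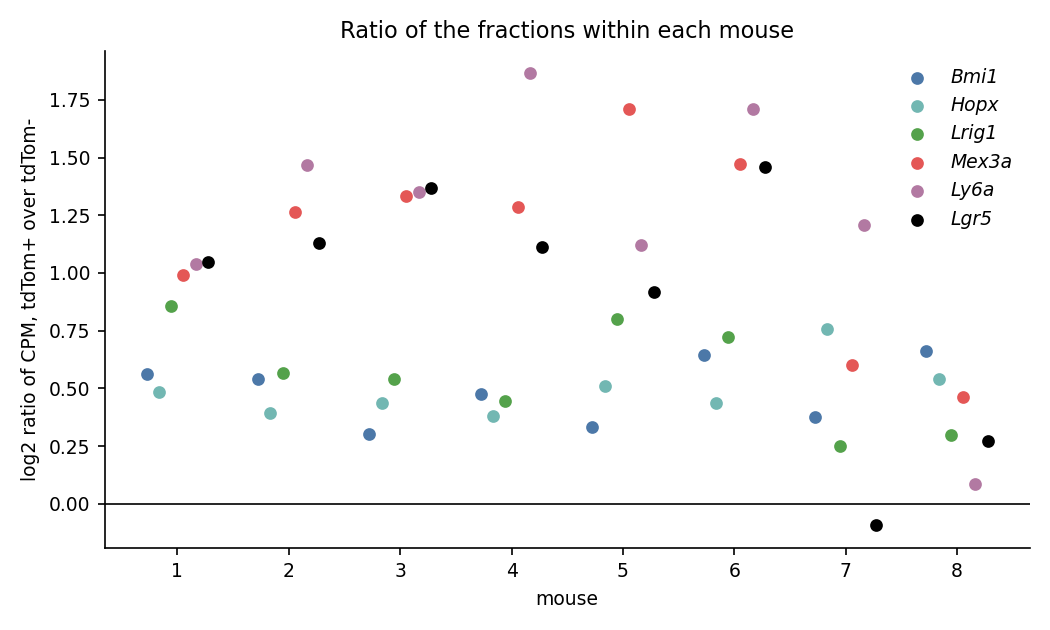
Log2 ratio of CPM between the tdTom+ and tdTom- fraction of each mouse, for the 5 genes called higher and for *Lgr5* (black). Every ratio of the 5 genes is above 0, and the *Lgr5*, *Lrig1* and *Mex3a* points of mice 7 and 8 lie below those of the other 6 mice.

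Genes of the pathways to which the 7 belong were taken from 9 lists of 99 genes, which were drawn up with earlier results of these data known. Of the 77 tested, 40 were higher in tdTom+ and 12 were lower. Of all 15323 genes tested, 25.8% were called higher and 30.0% lower, 55.8% in either direction. These shares are the background for the count of each list below. For the 20 genes of the Polycomb complexes and their target *Cdkn2a*, 19 were tested, 7 were higher and 2 were lower, with a median log2 fold change of 0.07 against 0.02 over all genes tested. The PRC1 genes *Cbx6* (16.8 against 8.63 CPM, log2 fold change 0.97, edgeR adjusted p = 1.1e-06) and *Pcgf3* (100.3 against 55.4 CPM, 0.85) changed most. *Cbx7*, a reader of the mark that PRC2 sets, was at 0.61 and *Rnf2*, the ubiquitin ligase with which BMI1 pairs, at 0.56. The number of lower genes was 0 without mouse 3 and 4 without mouse 7. It was 5 with scaling by total counts and at an adjusted p threshold of 0.05, 4 with no filter on low counts and 1 with at least 10 counts required in every sample. *Cdkn2a*, a locus that BMI1 silences, was at or near 0.

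Of the 7 genes that encode LRIG paralogs and receptor kinases on which LRIG1 acts, 6 were tested, 1 was higher and 3 were lower. *Egfr*, the receptor for EGF, averaged 57.7 CPM in tdTom+ and 24.2 CPM in tdTom- (log2 fold change 1.24, edgeR adjusted p = 8.3e-09), in the same direction as *Lrig1*. The paralog *Lrig3* (19.7 against 35.9 CPM, -0.86) and the receptors *Erbb2* (116 against 204 CPM, -0.81) and *Erbb3* (270 against 468 CPM, -0.76) were lower, each without overlap. Over all tested genes the fractions did not overlap for 31.6%, in either direction. *Lrig2* did not pass, with a log2 fold change of -0.24 and an edgeR adjusted p of 0.0133. With at least 10 counts required in every sample 2 genes were higher, *Egfr* and *Met*. All 3 MEX3 paralogs had positive log2 fold changes and 2 of the 3 passed, *Mex3d* at 0.48 and *Mex3c* at 0.27. *Mex3b* was at 0.43 with an adjusted p of 0.0145. The count of MEX3 paralogs was 1 without mouse 1, without mouse 4 and without the replicate block. These values were smaller than the 1.14 of *Mex3a*, but the differences were not tested.

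Of 8 other marks of reserve or label-retaining crypt cells, all were tested, 5 were higher and 1 was lower. *Prox1*, a homeobox gene of enteroendocrine and tuft cells, was at 11.2 against 1.96 CPM (log2 fold change 2.52, edgeR adjusted p = 8.2e-10). *Sox9*, a transcription factor gene of the crypt base and of Paneth cells, followed with 1.44, *Dll1*, a Notch ligand of secretory precursors, with 1.23 and *Cdkn1c*, an inhibitor of the cell cycle, with 0.97. *Tert*, which encodes the protein part of telomerase, was lower at 2.69 against 4.75 CPM (-0.81), in 8 of 8 mice. Several of these genes also serve as markers of secretory precursors or of mature secretory cells, which differed between the fractions as given above.

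Of 15 other genes of the fetal-like and revival programme, 10 were tested, 7 were higher and 1 was lower, with a median log2 fold change of 0.86. *S100a6*, a calcium-binding protein gene, averaged 584 CPM in tdTom+ and 11.5 CPM in tdTom- (log2 fold change 5.67, edgeR adjusted p = 2.4e-13). *Sprr1a*, a cornified envelope gene, was at 3.06 and *Cldn4*, a tight junction gene, at 2.27. *Emp1*, a gene of an epithelial membrane protein, was lower with 17.9 against 112 CPM (-2.67). With no filter on low counts and with DESeq2 the number lower was 2, the second gene being *Spp1*. *Msln* and *Gja1* were at or near 0 in both fractions. For scale, the median log2 fold change was 7.33 for the goblet markers, 7.43 for the Paneth markers and -3.06 for the enterocyte markers. The part of secretory cells in the values of this list and of the annexins below was not tested.

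Of 15 genes of the YAP and TAZ pathway, which is known to drive the regenerative state, 12 were tested, 7 were higher and 5 were lower. *Tead4* (2.78 against 0.245 CPM, log2 fold change 3.48, edgeR adjusted p = 6.2e-10), *Wwtr1*, which encodes TAZ (1.46), and *Tead2* (1.39) were higher. *Ereg*, the epiregulin gene, was lower (0.380 against 2.17 CPM, -2.49). *Yap1* itself was among those lower, at 49.1 against 58.9 CPM (-0.26), and was named after its value was seen. *Ankrd1*, a target, was listed at 0 in all 16 libraries. The number lower was 3 without mouse 3 and 2 with at least 10 counts required in every sample.

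Tested relatives of *Anxa1* and *Ly6a* were higher in tdTom+ or did not pass. Of 11 other annexins, 8 were tested, 5 were higher and 0 were lower. *Anxa3* was at 47.0 against 0.806 CPM (log2 fold change 5.84, edgeR adjusted p = 6.9e-14), *Anxa5* at 2.10, *Anxa6* at 1.64 and *Anxa4* at 0.62 on that scale. Of 12 other LY6 family genes only 3 were tested, all of them higher. This one-sided count depended on the filter, since 2 further genes, *Ly6d* and *Ly6c2*, were called lower with no filter on low counts and with DESeq2. *Lypd8*, which encodes a protein that keeps bacteria from the epithelium, was at 3786 against 1493 CPM (1.35), *Ly6e* at 145 against 41.6 CPM (1.89) and *Lypd1* at 1.31 against 0.475 CPM (1.47). The other 9, among them *Ly6c1* and *Ly6g*, were below the filter, 6 of them at or near 0. Of the 8 crypt base genes, 3 were higher, namely *Lgr5*, *Slc12a2* (0.71), a chloride cotransporter gene, and *Smoc2* (0.54), a matrix protein gene, and 0 were lower.

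**Figure D5:**
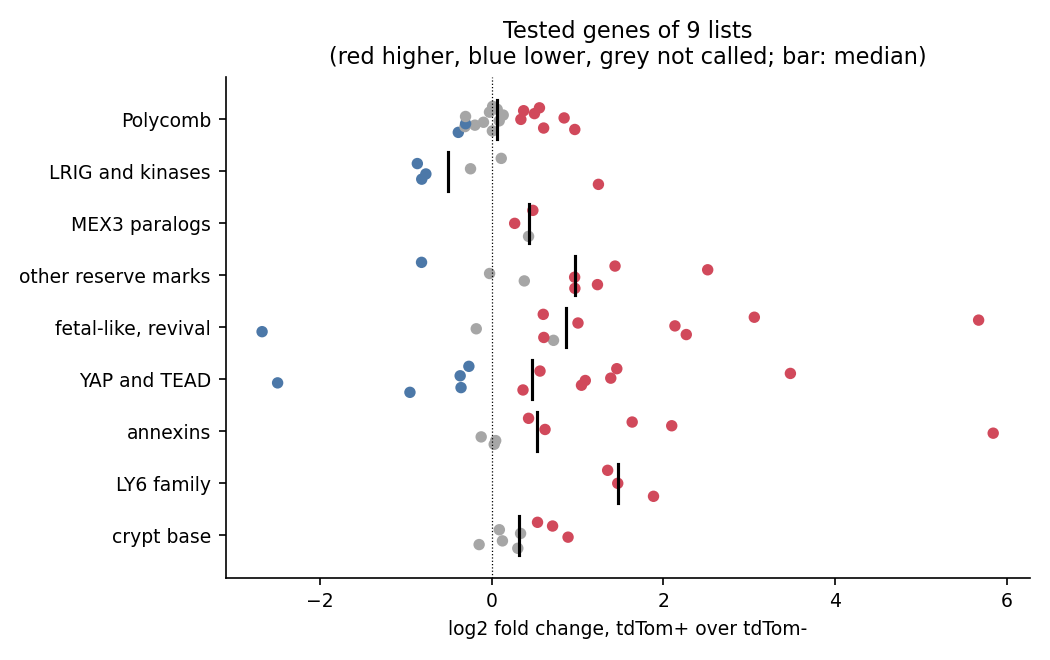
Log2 fold change between tdTom+ and tdTom- of the tested genes in each of 9 lists. Each point is a gene, red when called higher, blue when called lower and grey when not called at an adjusted p of 0.01, and the black bar is the median of the list. Called genes lie on both sides of 0 for the Polycomb, LRIG and kinase, other reserve, fetal-like and YAP lists, and the furthest to the right are *S100a6* (5.67) and *Anxa3* (5.84).

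The genes whose pattern over the 16 libraries was most like that of each gene were found by the root mean square difference of log2 CPM after each gene was centred on its own mean. The nearest to *Bmi1* was *Bscl2* (0.08), and the nearest to *Hopx* was *Mindy1* (0.09). *Morf4l1* was among the 3 nearest of both, at 0.10 each, and *Zbtb1* and *Rbm18* completed these lists. *Lrig1* was followed most closely by *Vgll4* (0.06), which encodes a cofactor of TEAD factors, then by *Imp3* and *Wdr73*. For *Mex3a* the nearest were *Zc3h7b* and *Slain1* (0.15 each) and *Mthfd1l* (0.16). The nearest to *Ly6a*, *Pla2g5* (0.49), *Gbp7* (0.51) and *Ecscr* (0.52), and to *Clu*, *Gm13642* (0.36), *Gm4724* (0.37) and *Ankrd26* (0.38), were more distant. For scale, the spread of *Ly6a* itself around its mean was 1.08 and that of *Clu* 0.51 on the same measure.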

How the data were processed

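Both fractions of 8 mice were profiled by stranded mRNA sequencing (TruSeq Stranded mRNA, single-end reads). The authors aligned reads to GRCm38 with TopHat2 (version 2.1.1 and build GRCm38.p3 in the submitters' processing notes). The authors deposited raw counts, not normalized, per Ensembl gene identifier from featureCounts 1.5.0-p1 per the file headers (the notes name Subread 1.5.2). Counting was reverse-stranded and limited to primary alignments. The authors made their own gene lists with DESeq2 1.14.1 per the notes. GENCODE M21 gave a symbol for 44585 of 45513 identifiers. Coordinates are those of the files.

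Counts were fitted in R 4.3.3 with edgeR 4.0.16 (filterByExpr by group, TMM scaling, quasi-likelihood F-test, mouse as a replicate block), with Benjamini-Hochberg adjustment over 15323 genes and a threshold of 0.01. The study names no covariate. The block was used because both fractions came from each small intestine and share a number in the titles. Deviations from the fraction means correlated at 0.426 (0.245 to 0.634) for same-numbered libraries. The average of -0.0569 for different mice is largely fixed by that centring and carries little information. Of the tdTom- libraries, 8 of 8 correlated best with the tdTom+ library of their own number. Titles do not state more about the mice than this number. The biological coefficient of variation was 11.9%. Totals of 17116405 to 25323567 counts put 3 counts at 0.118 to 0.175 CPM, and this limit covers counting error only. Ratios per mouse came from log2 CPM (prior count 2) and were compared by exact two-sided sign-flip tests with a threshold of 0.05. Alternatives were RLE size factors, total counts, TMM without the 10 most counted genes, no filter, at least 10 counts in every sample, no replicate block, thinning, a threshold of 0.05, a prior count of 0.5, DESeq2 1.42.0, limma-voom (limma 3.58.1) and leaving out each mouse. Genes named from lists were up to 4 per list with the largest changes past the threshold and at least 1 CPM in the higher fraction, besides the 7 genes, their LRIG and MEX3 paralogs, *Lgr5*, *Atoh1*, *Epcam* and the 3 nearest genes of each. The 7 genes, the lists and the tests were chosen with earlier results of these data known. A few genes of the lists are not reported here by name.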

Additional observations from a re-analysis of the deposited data

Results flagged for a closer look

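Of 14 sets of 8 values examined on the log2 CPM scale (7 genes in 2 fractions), 1 held a library far from the others. Chance would give about 1 in 20 or 0.7 sets. *Clu* in the tdTom- library of mouse 5 was at 0.274 CPM, the lowest of its fraction, and its gap to the next library was 0.548 of the whole range, above Dixon's limit for 8 values.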

How the results depend on the processing

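The calls of *Bmi1*, *Hopx*, *Lrig1* and *Mex3a* were the same under every alternative run, including DESeq2, limma-voom and each mouse left out. With each mouse left out in turn the log2 fold changes ranged from 0.47 to 0.62 for *Bmi1*, 0.46 to 0.61 for *Hopx*, 0.52 to 0.67 for *Lrig1*, 1.06 to 1.25 for *Mex3a*, 1.24 to 1.48 for *Ly6a* and -0.24 to 0.00055 for *Clu*, whose sign turned without mouse 4 (0.000554). Without the replicate block *Ly6a* lost its call (1.32, edgeR adjusted p = 0.0285), and the pairing changed the call of no other of the 6 genes. With at least 10 counts required in every sample *Ly6a* and *Clu* were not tested, since their lowest tdTom- libraries had 3 and 6 counts. Leaving out 1 mouse, the differences from *Lgr5* ranged from -0.54 to -0.32 for *Bmi1*, -0.59 to -0.32 for *Hopx*, -0.44 to -0.27 for *Lrig1* and -1.13 to -0.75 for *Clu*, all 4 passing only without mouse 7. The number of gene pairs that differed was 6 with a prior count of 0.5 and 0 to 6 with a mouse left out. Requiring at least 10 counts in every sample moved the median of all genes by 0.12 on the log2 scale, and leaving out mouse 3 moved it by 0.10, so that 57.0% and 55.5% of all calls were higher in tdTom+, against 46.2% in the main analysis. Of the counts of list genes, 16 moved by over 1.5 times under an alternative and 308 did not. The cause of these changes was not tested. Depth limits *Anxa1*, which had at most 7 counts in any library.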

Other observations

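Whether a mouse with more of a gene in 1 fraction also had more of it in the other was examined for the 6 tested genes after the values were seen. For *Ly6a* Pearson's r between the fractions over 8 mice was 0.836 (exact permutation p = 0.0117, adjusted 0.0702 over 6 relations) and Spearman's rho was 0.714 (exact permutation p = 0.0576, adjusted 0.346). Without mice 6 and 7, the farthest from the median of the tdTom- values, r was 0.524 (exact permutation p = 0.275). Leaving out the extremes narrows the range and leaves fewer mice, so this cannot tell whether the relation rests on those animals. For the other 5 genes r was between 0.0872 (*Hopx*) and 0.657 (*Mex3a*), and none of the 6 relations passed after adjustment.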
